A study of Arabidopsis thaliana with 8 samples.

Results

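The genes described here encode the expansins and the xyloglucan endotransglucosylase/hydrolases (XTHs) of Arabidopsis, 2 families of secreted proteins that act on the cell wall. They were taken as every probe set of the deposited primed-against-unprimed table whose annotation text contains "expansin", "xyloglucan:xyloglucosyl" or "xyloglucan endotransglycosylase", in any letter case. The choice of these families was made with earlier results of these data known. Within that choice, the wording of the annotation, not any measured value, picked the probe sets. It matched 56 of 22746 probe sets, which stand for 58 genes: 23 probe sets of alpha-expansins (EXPA), 5 of beta-expansins (EXPB), 4 of expansin-like genes (EXLA and EXLB), 2 of expansin-related genes and 22 of XTH genes. Of these, 54 report 1 gene each, 1 is shared by EXPA22 and EXPA26 and 1 by EXPA23 and EXPA25.

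The plant cell wall is a network of cellulose microfibrils embedded in xyloglucan and pectin, and a growing cell enlarges only as this network yields to turgor. Expansins loosen the wall without cutting its polysaccharides, working best in an acidified wall, whereas XTHs cut a xyloglucan chain and join the cut end to another chain, or to water where they act as hydrolases. Both families have many members that differ in the organ and cell type in which they are expressed, from root hairs to guard cells, and several XTH genes are known to respond within a short time to touch, temperature and the growth hormones brassinosteroid and auxin.

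Seedlings of wild-type Col-0 were grown at 22 °C on agar medium with sucrose in 16 h of light and 8 h of dark, and were 5 days old when they were primed. Priming began with 1.5 h at 37 °C, after which the seedlings spent 1.5 h at 22 °C and then 45 min at 44 °C, with the heat given in the dark; seedlings that received no heat are the unprimed group, and whether these were also kept in the dark is not stated. Whole seedlings were harvested after 4, 8, 24 or 48 h of the memory phase, the time at normal growth temperature that follows priming. RNA of each of the 8 conditions was hybridised to 1 Affymetrix ATH1 array, an expression array with a probe set for most Arabidopsis genes, from 1 pool of seedlings. A difference at a single time point therefore has no replicate check, and no test is given for it. All members come from the same 8 RNA samples and are no replicates of one another.

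Values are log2 levels normalized between arrays, with a floor at 2, and a difference is the primed minus the unprimed array of the same time on the log2 scale. Array medians lay between 6.99 and 7.08, and 26.3 to 26.9% of probe sets were at the floor (within 0.05 of it) in each array. The median difference of all probe sets was 0.00 at each time. Markers of green tissue and of roots were above the floor in all 8 arrays, the lowest being CASP2. As these are whole seedlings, fewer cells of a type and less RNA per cell cannot be told apart. Where the primed or the unprimed array is close to the floor, the size of the difference is limited by it.

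A larger share of the expansin and XTH genes than of all probe sets was lower in primed seedlings soon after priming. At 4 h, 21 of 56 members (37.5%) were at least 2-fold lower, against 9.93% of all probe sets, and 5 were at least 2-fold higher, against 9.36%. At 8 h, 14 (25%) were lower, against 7.91%, and 4 were higher, against 7.33%. The share that was lower thus stood above the background at both early times, whereas the share that was higher (8.93% and 7.14%) was near it. At 24 h the picture was mixed: 6 members were higher (10.7%, background 2.76%) and 5 were lower (8.93%, background 1.67%). At 48 h, 3 members were higher (background 0.747%) and 1 was lower (background 0.932%). The median difference of the 56 members was −0.60 at 4 h, −0.04 at 8 h and 0.00 at 24 and 48 h.

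**Figure D1:**
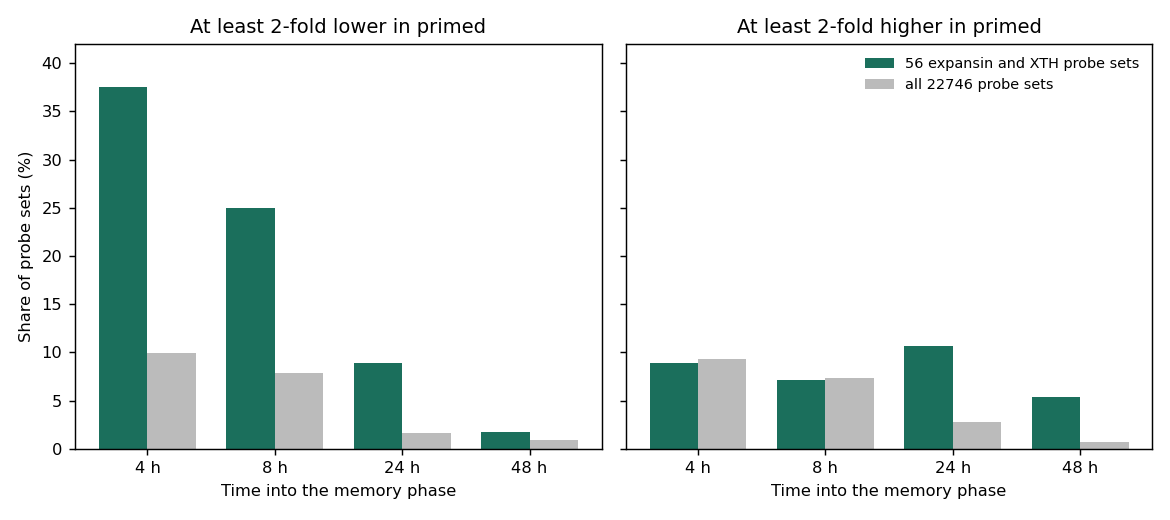
Share of probe sets (%, vertical axis, from 0) at least 2-fold lower (left) or higher (right) in the primed than in the unprimed array at each harvest time, for the 56 expansin and XTH probe sets (green) and all 22746 probe sets (grey). The green bar of lower probe sets is 37.5% at 4 h against 9.93%, and 1.79% at 48 h against 0.932%.

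Of the 56 members, 13 were at the floor in all 8 arrays and could show no difference: EXPA12, EXPA24, the 2 shared alpha-expansin probe sets, EXPB2, EXPB4, EXPB5, AT4G30380, XTH1, XTH2, XTH11, XTH25 and XTH29. The other 43 passed the floor in at least 1 array. A further 11 members stayed within 2-fold at all 4 times, with differences from −0.85 to 0.84. They were EXPA2, EXPA11, EXPA13, EXPA14, EXPA20, EXPA21, XTH7, XTH8, XTH10, XTH21 and XTH32. Among them, EXPA2 and EXPA21 were at the floor in 7 of 8 arrays. XTH10 and XTH21 reached at most 2.88 and 2.84, so the floor left them little room for a decrease. The remaining 32 members were past 2-fold at 1 or more times, against 27.2% of all probe sets. EXPA4, EXPA10, EXPA17 and XTH23 were past it at 3 or more times (background 1.93%), and EXPA4, EXPA10, EXPA15, EXPA17 and EXLA3 were past it in opposite directions at different times (background 1.34%).

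In the plot of the differences, the most frequent pattern among the members past 2-fold is a pair of early decreases with little difference later. It was shown by 12 members, and EXPA4 had the same early values but a difference of 1.25 at 24 h. Lower at both 4 and 8 h were 13 members, against 4.28% of all probe sets: 6 alpha-expansins, 2 beta-expansins and 5 XTHs. Their differences ran from −4.98 to −1.14 at 4 h and from −5.44 to −1.03 at 8 h, and 8 of the 13 were lower by more at 8 h than at 4 h. At 24 h the same 13 ran from −0.34 to 1.25 and at 48 h from −0.71 to 0.45. Another 8 members were lower at 4 h but not at 8 h, and 1 (XTH14) at 8 h but not at 4 h. Of these 22 members, 17 were within 2-fold at 24 h and 20 at 48 h.

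**Figure D2:**
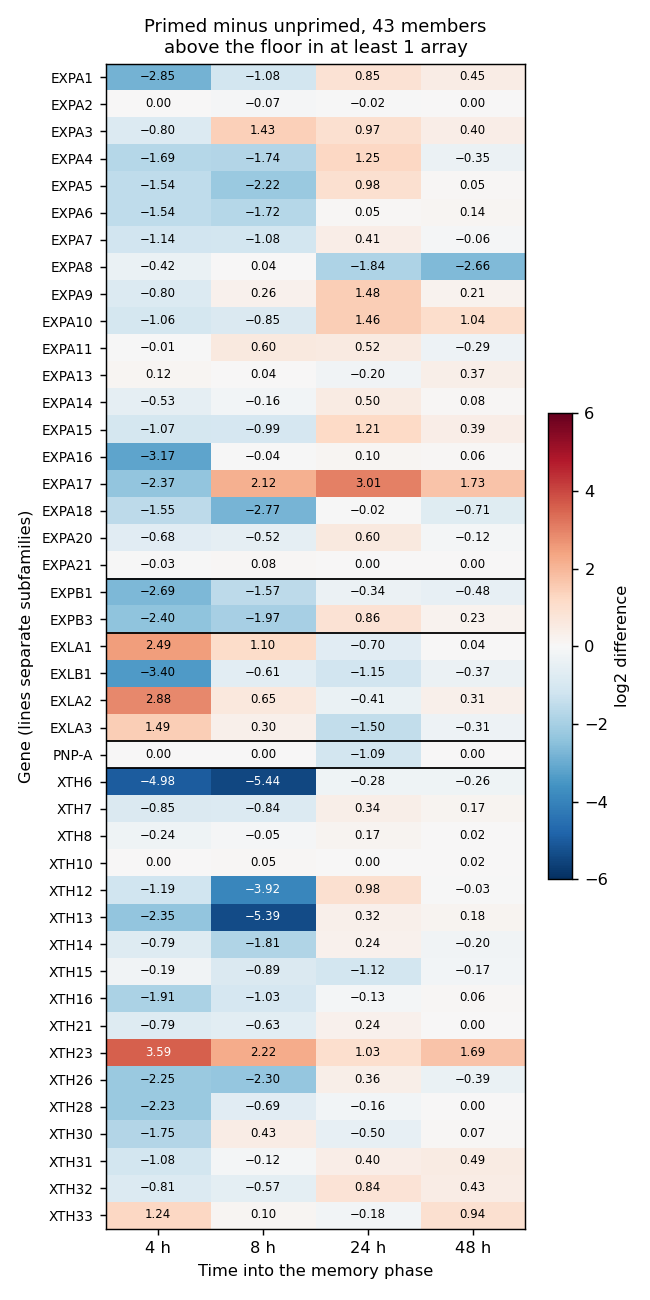
log2 difference (primed minus unprimed, colour and printed number) at the 4 harvest times for the 43 members above the floor in at least 1 array, with black lines between alpha-expansins, beta-expansins, expansin-like genes, the expansin-related gene PNP-A and XTH genes. Blue at 4 and 8 h (down to −5.44 for XTH6) gives way to pale colours at 24 and 48 h, and XTH23 is red throughout.

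Alpha-expansins are the classical wall-loosening proteins of growing tissue. At 4 h, 10 of 23 were lower (43.5%, background 9.93%) and 0 were higher (background 9.36%), with a median of −0.80. At 8 h, 6 were lower (26.1%, background 7.91%) and 2 higher (8.7%, background 7.33%). At 24 h, 1 was lower (4.35%, background 1.67%) and 5 higher (21.7%, background 2.76%), and at 48 h 1 was lower (background 0.932%) and 2 higher (background 0.747%). The 10 that were lower at 4 h were EXPA1, EXPA4, EXPA5, EXPA6, EXPA7, EXPA10, EXPA15, EXPA16, EXPA17 and EXPA18.

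EXPA6 (AT2G28950) showed the early pattern against the steadiest control. Its level in unprimed seedlings was 9.91, 9.95, 9.81 and 9.82 at 4, 8, 24 and 48 h, a range of 0.14. In primed seedlings it was 8.37, 8.23, 9.86 and 9.96. The 4 and 8 h primed arrays were thus below every unprimed array, by differences of −1.54 and −1.72 from their own control (2.91-fold and 3.29-fold), and the later arrays were at the unprimed level (0.05 and 0.14).

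EXPA1 (AT1G69530), an expansin known from guard cells, was 7.07 in primed and 9.92 in unprimed seedlings at 4 h (−2.85, 7.21-fold lower) and 8.68 against 9.76 at 8 h (−1.08). It was 9.55 against 8.70 at 24 h and 9.86 against 9.41 at 48 h. Only the 2 early primed arrays were below all unprimed arrays.

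EXPA5 (AT3G29030), which is known to promote growth of aerial organs, was 7.57 against 9.11 at 4 h, 7.11 against 9.33 at 8 h, 8.55 against 7.57 at 24 h and 9.15 against 9.10 at 48 h. Its 8 h difference of −2.22 was 4.66-fold, and the primed 4 h array equalled the lowest unprimed array, that of 24 h.

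EXPA4 (AT2G39700) was 6.37 against 8.06 at 4 h, 7.34 against 9.08 at 8 h, 8.55 against 7.30 at 24 h and 8.76 against 9.11 at 48 h. The differences were −1.69, −1.74, 1.25 and −0.35. The primed 24 h value lay inside the range of the unprimed arrays.

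EXPA7 and EXPA18 are expansins of root hairs, the tubular outgrowths of root epidermal cells. EXPA18 (AT1G62980) was 6.74 against 8.29 at 4 h, 5.33 against 8.10 at 8 h, 7.31 against 7.33 at 24 h and 6.69 against 7.40 at 48 h. All 4 primed values were below the lowest unprimed value, with the widest gap at 8 h (−2.77, 6.82-fold). EXPA7 (AT1G12560) was 4.34 against 5.48 at 4 h, 4.57 against 5.65 at 8 h, 5.11 against 4.70 at 24 h and 4.42 against 4.48 at 48 h, so that its 8 h primed value was inside the unprimed range although the difference was −1.08.

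EXPA17 (AT4G01630), known from the tissue over emerging lateral roots, was the alpha-expansin with the widest swing. It was 6.98 against 9.35 at 4 h, 10.11 against 7.99 at 8 h, 9.99 against 6.98 at 24 h and 8.61 against 6.88 at 48 h. The differences were −2.37, 2.12, 3.01 and 1.73. The 8 and 24 h primed arrays were above all unprimed arrays, and the unprimed level was itself 9.35 at 4 h and 6.88 at 48 h.

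EXPA16 (AT3G55500) was 5.01 against 8.18 at 4 h, a difference of −3.17, the largest decrease of an alpha-expansin at that time. Unprimed seedlings had 5.60, 4.51 and 4.28 at 8, 24 and 48 h, and primed seedlings 5.56, 4.61 and 4.34. The 4 h unprimed array therefore stood apart from all 7 others, and the primed 4 h value was inside the unprimed range.

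EXPA8 (AT2G40610) was the member with the largest late decrease. It was 3.27 against 3.69 at 4 h, 3.29 against 3.25 at 8 h, 3.98 against 5.82 at 24 h and 3.74 against 6.40 at 48 h. The unprimed level was higher at 24 and 48 h than at 4 and 8 h while the primed level stayed between 3.27 and 3.98. The differences of −1.84 and −2.66 (6.32-fold) made it the only member that was at least 2-fold lower at 48 h.

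EXPA3 (AT2G37640) was 8.74 against 9.54 at 4 h, 10.08 against 8.65 at 8 h, 8.84 against 7.87 at 24 h and 8.86 against 8.46 at 48 h. With EXPA17 it made up the 2 alpha-expansins that were higher at 8 h (1.43 and 2.12). Both were above every unprimed array at that time.

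At 24 h the alpha-expansins higher in primed seedlings were EXPA4, EXPA9, EXPA10, EXPA15 and EXPA17. EXPA9 (AT5G02260) was 6.18 against 4.70, EXPA10 (AT1G26770), which is expressed in leaves and at the pedicel base, was 8.87 against 7.41, and EXPA15 (AT2G03090) was 7.81 against 6.60. XTH23 was the sixth member that was higher at this time. In 4 of the 6, the unprimed 24 h array was the lowest of the 4 unprimed arrays, and in 4 the primed value was inside the unprimed range. EXPA17 and XTH23 were above it.

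Ties included, the unprimed 24 h array was the lowest unprimed array for 10 of 19 alpha-expansins above the floor in at least 1 array. The share was 28% of all probe sets above the floor. EXPA21 was among the 10 only by a tie at the floor, and EXPA6 by 9.81 against 9.82 at 48 h. The unprimed 48 h array differs from the unprimed 24 h array by 1 day and no treatment. Between these controls, 3 members were at least 2-fold higher at 48 h (background 1.55%) and 4 were lower (background 1.17%). With the unprimed 48 h array as the control of the primed 24 h array, a comparison added after the values were seen, 4 members were higher (background 2.03%) instead of 6 and 1 was lower (background 1.68%). The primed 48 h array had 6 members higher (background 2.08%) and 7 lower (background 2.1%) than the unprimed 24 h array. EXPA17 (3.11), EXPA10 (1.16), EXPA9 (1.00) and XTH23 (2.05) were the 4 past 2-fold in the primed 24 h array against either unprimed array. EXPA4 and EXPA15 went from 1.25 and 1.21 to −0.56 and −0.34.

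**Figure D3:**
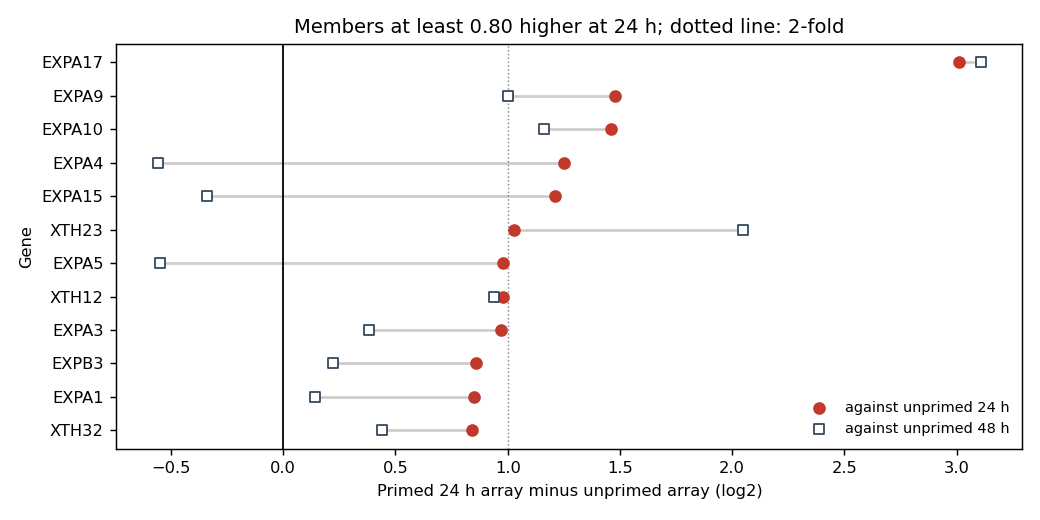
Primed 24 h array minus an unprimed array (log2, horizontal axis) for the 12 members with a difference of at least 0.80 at 24 h, against the unprimed array of 24 h (filled circles) and of 48 h (open squares), with the 2-fold limit dotted. EXPA17 stays near 3 under both controls (3.01 and 3.11), while EXPA4, EXPA15 and EXPA5 cross 0.

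EXPA10 and EXPA15 were also lower at 4 h (−1.06 and −1.07), with 7.47 against 8.53 and 6.99 against 8.06. At 8 h they were 8.88 against 9.73 and 7.56 against 8.55, short of 2-fold. At 48 h EXPA10 was 8.75 against 7.71 (1.04) and EXPA15 8.54 against 8.15.

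Beta-expansins, the family known in grasses for its pollen allergens, had 2 members above the floor in these seedlings, and both were lower at 4 and 8 h. EXPB3 (AT4G28250) was 6.95 against 9.35 at 4 h and 8.35 against 10.32 at 8 h, then 10.36 against 9.50 at 24 h and 10.37 against 10.14 at 48 h. Its early primed values were below all unprimed values (−2.40 and −1.97) and the late ones above them.

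EXPB1 (AT2G20750) was 2.50 against 5.19 at 4 h, 2.73 against 4.30 at 8 h, 4.36 against 4.70 at 24 h and 3.66 against 4.14 at 48 h. The differences were −2.69, −1.57, −0.34 and −0.48, all negative. The early primed values were close to the floor.

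Expansin-like proteins share the expansin fold, but no wall-loosening activity has been assigned to them. Of these 4 genes EXLA1, EXLA2 and EXLA3 were higher at 4 h and EXLB1 was lower. EXLA2 (AT4G38400) was 12.40 against 9.52 at 4 h, 9.98 against 9.33 at 8 h, 10.06 against 10.47 at 24 h and 9.85 against 9.54 at 48 h. Its 4 h difference of 2.88 (7.36-fold) was confined to 1 primed array, the only one above all unprimed arrays.

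EXLA1 (AT3G45970) was 13.01 against 10.52 at 4 h, 11.86 against 10.76 at 8 h, 11.96 against 12.66 at 24 h and 12.12 against 12.08 at 48 h. It was thus higher by 2.49 and 1.10 early and lower by less than 2-fold at 24 h. The unprimed levels at 24 and 48 h were above the primed level at 8 h.

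EXLA3 (AT3G45960) was 4.61 against 3.12 at 4 h, 4.20 against 3.90 at 8 h, 5.17 against 6.67 at 24 h and 5.55 against 5.86 at 48 h. The differences were 1.49 at 4 h and −1.50 at 24 h. Every primed value was inside the unprimed range of 3.12 to 6.67, and against the mean of the 4 unprimed arrays these differences were −0.28 and 0.28.

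EXLB1 (AT4G17030) was 3.26 against 6.66 at 4 h, 7.06 against 7.67 at 8 h, 4.56 against 5.71 at 24 h and 4.55 against 4.92 at 48 h. The 4 h difference of −3.40 (10.6-fold) was the largest decrease of any expansin family member at that time. It was lower at all 4 times, past 2-fold at 4 and 24 h (−1.15).

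Of the expansin-related genes, PNP-A (AT2G18660), which encodes a natriuretic-peptide-like protein, was above the floor in 1 array only, unprimed 24 h, with 3.09. Its difference there was −1.09 against a primed array at the floor.

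**Figure D4:**
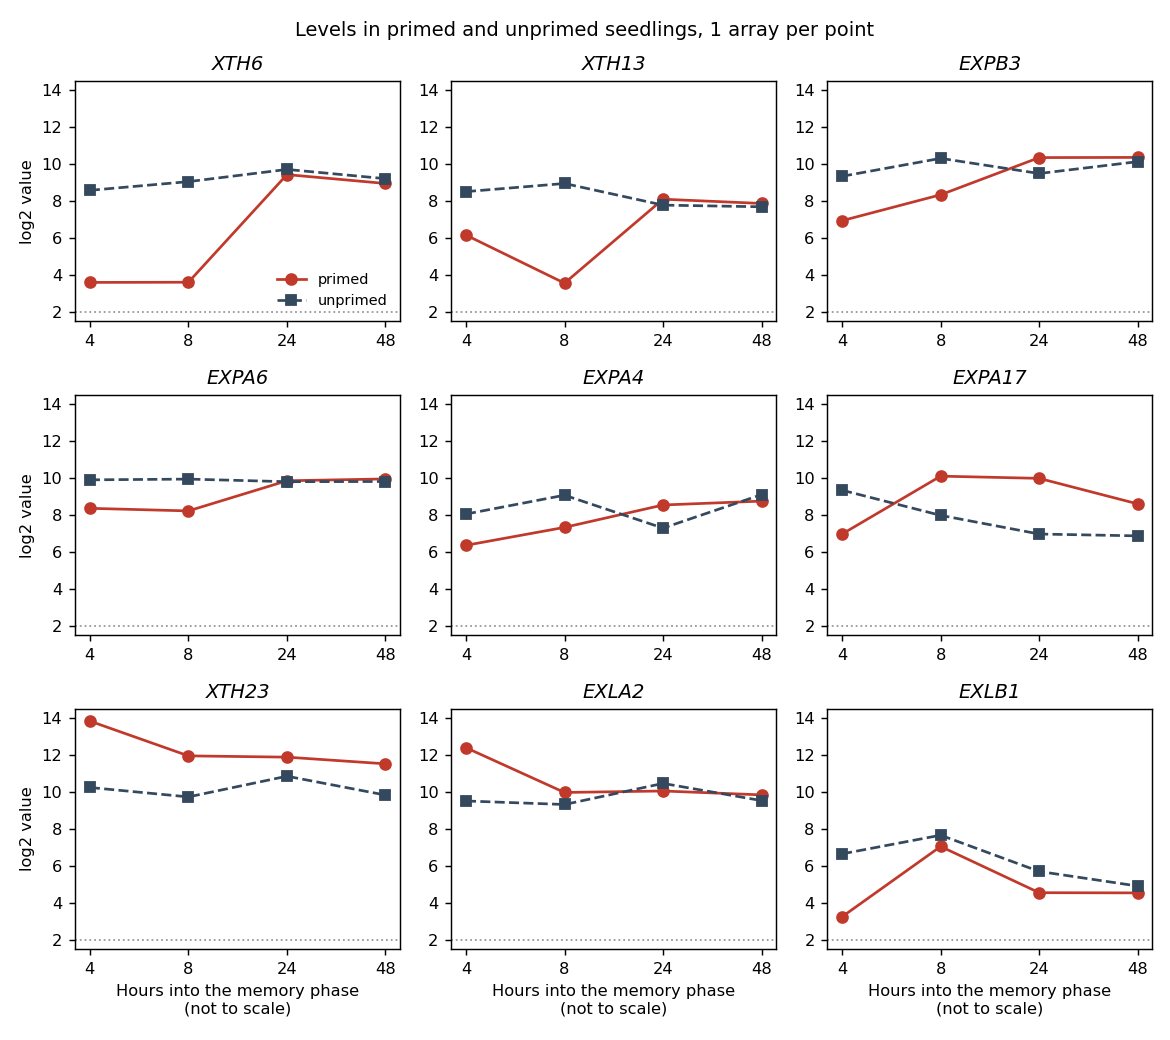
log2 level (vertical axis) in primed (red circles) and unprimed (dark squares) seedlings over the 4 harvest times for 9 members, 1 array per point, with the floor dotted. The primed line of XTH6 is at 3.61 and 3.62 at 4 and 8 h and meets the unprimed line at 24 h, that of XTH23 stays above the unprimed line, and that of EXPA17 crosses it between 4 and 8 h.

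Among the 22 XTH probe sets, the 4 h arrays had 8 lower (36.4%, background 9.93%) and 2 higher (9.09%, background 9.36%), with a median of −0.79. The 8 h arrays had 6 lower (27.3%, background 7.91%) and 1 higher (4.55%, background 7.33%), with a median of −0.34. The 24 h arrays had 1 of each (backgrounds 1.67% and 2.76%), and the 48 h arrays 0 lower and 1 higher (backgrounds 0.932% and 0.747%). The higher XTHs at 4 and 8 h were thus near or below the share of all probe sets. XTH6 (AT5G65730) had the largest early decreases of all members at 4 and 8 h. It was 3.61 against 8.59 at 4 h, 3.62 against 9.06 at 8 h, 9.44 against 9.72 at 24 h and 8.96 against 9.22 at 48 h. The early primed arrays were 31.6-fold and 43.4-fold below their controls (−4.98 and −5.44), and the later ones within −0.28 and −0.26 of them.

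XTH12 (AT5G57530) and XTH13 (AT5G57540), both known as root XTHs, had their lowest level at 8 h. XTH13 was 6.17 against 8.52 at 4 h, 3.57 against 8.96 at 8 h, 8.11 against 7.79 at 24 h and 7.88 against 7.70 at 48 h. The 8 h difference of −5.39 was 41.9-fold. XTH12 was 7.12 against 8.31 at 4 h, 4.81 against 8.73 at 8 h, 8.10 against 7.12 at 24 h and 7.13 against 7.16 at 48 h, with a difference of −3.92 (15.1-fold) at 8 h. Its 4 h primed value equalled the lowest unprimed value.

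XTH26 (AT4G28850) and XTH14 (AT4G25820) are known from root hairs and the root elongation zone. XTH26 was 2.58 against 4.83 at 4 h, 2.39 against 4.69 at 8 h, 3.97 against 3.61 at 24 h and 3.17 against 3.56 at 48 h. Both early primed values were near the floor and below all unprimed values (−2.25 and −2.30). XTH14 was 9.65 against 10.44 at 4 h, 8.61 against 10.42 at 8 h, 10.05 against 9.81 at 24 h and 9.63 against 9.83 at 48 h, past 2-fold at 8 h only (−1.81).

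XTH16 (AT3G23730) was, like EXPA6, steady without priming, with an unprimed range of 0.16. It was 7.28 against 9.19 at 4 h and 8.00 against 9.03 at 8 h, and 8.99 against 9.12 and 9.20 against 9.14 later. The differences were −1.91, −1.03, −0.13 and 0.06.

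XTH28, XTH30 and XTH31 were lower at 4 h only. XTH28 (AT1G14720), known from stamen filament growth, was 9.71 against 11.94 at 4 h and 10.83 against 11.52 at 8 h, a difference of −2.23 followed by −0.69. XTH30 (AT1G32170) was 6.85 against 8.60 at 4 h and 8.45 against 8.02 at 8 h. XTH31 (AT3G44990), which is known for hydrolase activity, was 11.79 against 12.87 at 4 h and 13.35 against 13.47 at 8 h. All 3 were below every unprimed array at 4 h and within 2-fold at 24 and 48 h.

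XTH15 (AT4G14130), also called XTR7, differed from this set. It was 10.46 against 10.65 at 4 h, 8.61 against 9.50 at 8 h, 9.11 against 10.23 at 24 h and 8.76 against 8.93 at 48 h. Only the 24 h difference reached 2-fold (−1.12), and against the unprimed 48 h array the same primed value was 0.18 higher.

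XTH23 (AT4G25810), also called XTR6, was the only member at least 2-fold higher at all 4 times. It was 13.84 against 10.25 at 4 h, 11.96 against 9.74 at 8 h, 11.89 against 10.86 at 24 h and 11.53 against 9.84 at 48 h. All 4 primed values were above the highest unprimed value. The differences were 3.59 (12-fold), 2.22, 1.03 and 1.69, so that the smallest was at 24 h, where the unprimed level was highest.

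XTH33 (AT1G10550), an XTH predicted to be anchored in the plasma membrane, was the other XTH that was higher at 4 h. It was 9.25 against 8.01 at 4 h, 7.82 against 7.72 at 8 h, 8.40 against 8.58 at 24 h and 8.68 against 7.74 at 48 h. Its differences of 1.24 and 0.94 at 4 and 48 h had differences of 0.10 and −0.18 between them.

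The annotation text missed 11 further XTH probe sets, whose wording differs, and 2 family genes, EXPA19 and EXPB6, had no probe set matched to them. Of the 11, 1 was at least 2-fold higher (background 9.36%) and 1 lower (background 9.93%) at 4 h. At 8 h 3 were higher (background 7.33%) and 0 lower (background 7.91%). The excess of lower genes among the members was not seen in these 11, which are too few to show that it was absent. XTH3, which is among the 11, was at the floor in all 8 arrays. XTH22 (AT5G57560), the touch-induced gene TCH4, was 13.51 against 10.31 at 4 h, 12.62 against 10.03 at 8 h, 12.34 against 11.79 at 24 h and 11.66 against 11.44 at 48 h. Like XTH23 it was higher early (3.20 and 2.59), and unlike it within 2-fold later. XTH9 was 10.76 against 12.76 at 4 h (−2.00), and XTH24 and XTH18 were higher at 8 h by 1.33 and 1.27.

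Several of these genes lie side by side, according to the RefSeq annotation of assembly TAIR10.1. XTH23 and XTH14 are adjacent on chromosome 4, with 0 protein-coding genes between them, and had differences of 3.59 and −0.79 at 4 h and of 2.22 and −1.81 at 8 h. On chromosome 5, XTH12, XTH13, XTH25 and XTH22 follow each other with 1 other protein-coding gene, between XTH12 and XTH13. At 8 h these 4 had −3.92, −5.39, 0.00 (at the floor) and 2.59. The adjacent EXLA3 and EXLA1 on chromosome 3 had the same sign at 4, 8 and 24 h. XTH24, XTH18 and XTH19, in a row on chromosome 4, had 0.26, 0.80 and −0.80 at 4 h and 1.33, 1.27 and 0.46 at 8 h. At 4 and 8 h, neighbours thus had opposite signs in the first pair and both signs in the group on chromosome 5. XTH12 and XTH13 were alike in sign within that group. The other cases had 1 sign at 8 h, although the row of XTH24, XTH18 and XTH19 had both signs at 4 h.

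**Figure D5:**
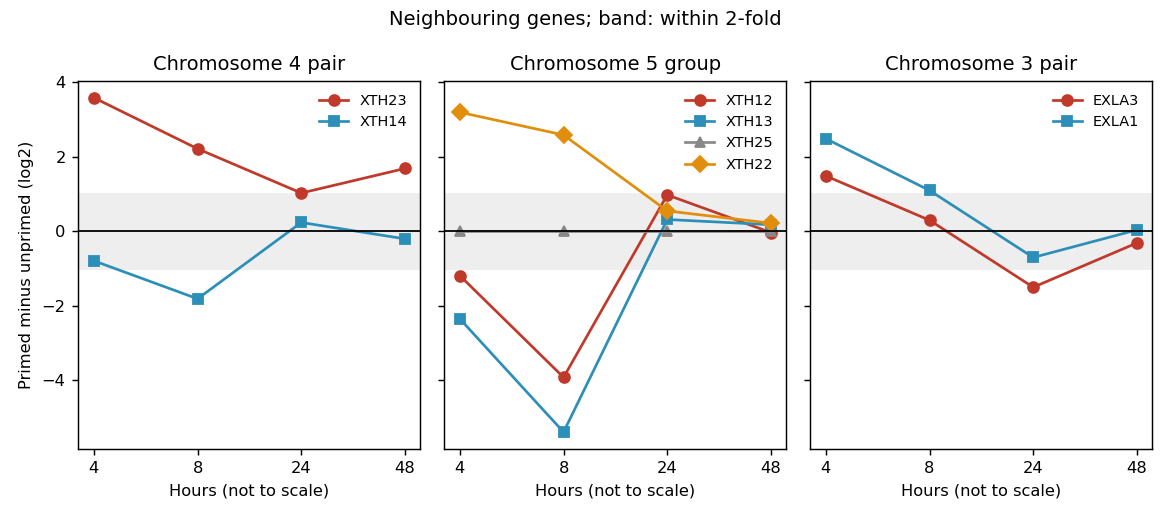
Primed minus unprimed level (log2, vertical axis) at 4, 8, 24 and 48 h for neighbouring genes on chromosomes 4, 5 and 3, with a grey band for differences within 2-fold. XTH23 and XTH22 lie above 0 at 4 and 8 h while their neighbours XTH14, XTH12 and XTH13 lie below, and EXLA3 and EXLA1 run in parallel.

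Root hair genes outside the families were lower at the same times as EXPA7, EXPA18 and XTH26. Of 6 root hair markers, 3 were at least 2-fold lower at 4 h (background 9.93%) and 5 at 8 h (background 7.91%). At 24 and 48 h 0 were lower (backgrounds 1.67% and 0.932%), and 1 was higher at 24 h (PRP3, 1.00, background 2.76%). Their mean level was 5.25 in primed against 7.00 in unprimed seedlings at 4 h, 4.79 against 7.16 at 8 h, 6.39 against 6.23 at 24 h and 5.76 against 6.11 at 48 h, and none was at the floor. PRP1, a proline-rich wall protein of root hairs, was 2.45 against 7.52 at 8 h (−5.07), whereas RHD6 and RSL4, transcription factors of root hair formation, had −0.96 and −1.24. Of 4 markers of the root endodermis or root (CASP1, CASP2, SCR and PYK10), 2 were lower at 4 h (CASP1, −1.34, and PYK10, −1.68, background 9.93%). At 8 h 1 was (PYK10, −1.23, background 7.91%). Their means were 8.30 against 9.32 at 4 h and 8.77 against 9.06 at 8 h. The part of these markers in the results of the root-expressed members was not tested.

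Genes that build or trim xyloglucan, the substrate of XTHs, were compared in the same way. Of 13 genes of xyloglucan synthesis, 4 were at least 2-fold higher (background 9.36%) and 1 lower (background 9.93%) at 4 h. At 8 h 2 were higher (background 7.33%) and 0 lower (background 7.91%). The higher ones were the glucan synthase CSLC6 (2.16), the galactosyltransferase MUR3 (1.74) and the xylosyltransferases XXT1 (1.68) and XXT5 (1.35) at 4 h, and XXT1 (1.46) and the fucosyltransferase FUT1 (1.20) at 8 h, with CSLC5 at −1.14 at 4 h. CSLC6 was 4.54 against 2.38 at 4 h, so that its unprimed value was close to the floor. The list's medians were 0.09 and 0.00 at 4 and 8 h, with CSLC12 at the floor in all 8 arrays. Of 3 xyloglucan-trimming glycosidases, BGAL10 was lower at 4 h (−1.19, background 9.93%) and 24 h (−1.38, background 1.67%) and XYL1 at 8 h (−1.03, background 7.91%). The medians of these 3 were −0.46 at 4 h and −0.83 at 8 h.

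Of 12 genes of cellulose synthesis, 0 were past 2-fold at any time (background 27.2%), with medians of 0.28 and 0.15 at 4 and 8 h. CESA9, which is among the 12, was at the floor in all 8 arrays and could show no difference. The plasma membrane proton pumps AHA1 and AHA2, which acidify the wall, had differences of −0.61 and −0.50 at 4 h. Of 12 probe sets of brassinosteroid and growth regulators, 2 were higher at 4 h (PIF4, 2.61, and PIF5, 1.04, background 9.36%). Lower at 4 h were 2 (CPD, −1.20, and DWF4, −1.07, background 9.93%). At 8 h BR6OX2 was higher (1.89, background 7.33%) and DWF1 lower (−1.17, background 7.91%). BR6OX2 was also higher at 24 h (1.07, background 2.76%). BR6OX1 was at the floor in all 8 arrays and could show no difference. PIF4, a growth-promoting transcription factor, was 2.67 and 2.12 in unprimed seedlings at 4 and 8 h and 5.66 and 6.08 at 24 and 48 h. The 4 unprimed arrays, which differ in harvest time, therefore differed among themselves in PIF4 as well as in EXPA8, EXPA16 and EXLA3.

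The primed values were also set against the range of all 4 unprimed arrays. At 4 h, 15 of the 21 lower members were below every unprimed array (background 9.23%). At 8 h, 12 of the 14 lower members were (background 7.04%). The backgrounds here are shares of all probe sets that met both conditions together. Of the lower probe sets alone, 2099 of 2258 were below the range at 4 h and 1601 of 1800 at 8 h. Lower members were thus below the range less often than lower probe sets at 4 h, and about as often at 8 h. Inside the range were EXPA5, EXPA10, EXPA15, EXPA16, EXPA17 and XTH12 at 4 h and EXPA4 and EXPA7 at 8 h. Of the 5 members higher at 4 h, 4 were above the range (background 8.96%), EXLA3 being the exception. At 8 h 3 of the 4 were (background 6.7%), all but EXLA1. Of the higher probe sets alone, 2038 of 2128 were above the range at 4 h and 1525 of 1668 at 8 h. The higher members are too few for a comparison with these. At 24 h EXPA17 and XTH23 were higher and above the range (background 1.8%) and at 48 h XTH23 (background 0.492%). At 24 h 1 member (EXLB1) was lower and below the range (background 0.941%), and at 48 h none was (background 0.409%).

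Tests were possible only across time points. In a limma fit of the mean effect over the 4 times, with the time point as a block, 0 of 22746 probe sets passed an adjusted p of 0.05 and 2029 (8.92%) had an unadjusted p under 0.05. XTH23 was the only member among these, with a mean difference of 2.13 ± 0.51 (SE, 4 pairs of arrays) and an adjusted p of 0.492, higher in 4 of 4 pairs. In the limma test of the early (4 and 8 h) against the late (24 and 48 h) effect, 0 probe sets passed and 3822 (16.8%) had an unadjusted p under 0.05. Among the members 11 had an early effect below the late one at that level and 1 (EXPA8) above it, a share of 12 in 56 that is not far from the background. The smallest adjusted p-values of members in this limma fit were 0.104 for XTH6 (early minus late −4.94 ± 0.21, SE), 0.118 for EXPA6 (−1.73 ± 0.09), 0.126 for XTH7 (−1.10 ± 0.08) and 0.161 for EXPA10 (−2.20 ± 0.21). XTH6 passed in 2 of the alternative fits (limma, adjusted p = 0.0306 with centring on reference genes and 0.0336 without dim probe sets). The fits had 3 and 2 residual degrees of freedom, so a p above the threshold does not show that a gene did not differ.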

How the data were processed

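The values are the authors' log2 levels after normalization between arrays, deposited in 2 tables that were equal in every cell. GCRMA and RMA are named, with no version, in the submitters' processing notes. No genome build was found in the labels, the methods or the file headers. The deposited table also holds the authors' differences between primed and unprimed arrays, which were not used. Value columns of no sample numbered 0.

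After removal of 64 control probe sets, 22746 remained, of which 21194 report 1 gene. Differences were computed from the log2 values and counted at a 2-fold limit. A value within 0.05 of the floor of 2 was taken to be at the floor; 5240 probe sets (23%) were there in all arrays. No depth applies to arrays, whose number, 1 per condition, limits the precision. Gene symbols came from a family list for 56 of the 58 genes and were checked against RefSeq names. Fits used limma 3.58.1 in R 4.3.3 over all probe sets with Benjamini-Hochberg adjustment (prior degrees of freedom 0.406 and 0.41), tested on simulated data. Other steps used Python 3.11.15 with pandas 2.3.3, and figures were drawn with matplotlib 3.10.9.

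The members and all gene lists were chosen with earlier results of these data known. Genes past 2-fold at 3 or more times or in opposite directions were named by rule. So were the 4 highest and 4 lowest differences at each time, EXPA7, EXPA18 and XTH22, and up to 3 genes of each other list. Further members and further genes of the other lists are named after their values were seen. Alternatives were quantile normalization, centring on 7 reference genes, leaving out dim probe sets (mean log2 value under 5), the mean of the unprimed arrays as control, a 1.5-fold limit, probe sets of 1 gene, the other table, leaving out each pair of arrays, limma without the block and limma with a trend and robust prior.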

Additional observations from a re-analysis of the deposited data

Results flagged for a closer look

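In 5 members the priming difference was past 2-fold in opposite directions at different times, against 1.34% of all probe sets. EXPA4 was −1.74 at 8 h and 1.25 at 24 h, EXPA10 was −1.06 at 4 h and 1.46 at 24 h, and EXPA15 was −1.07 at 4 h and 1.21 at 24 h. EXPA17 was −2.37 at 4 h and 3.01 at 24 h. EXLA3 was 1.49 at 4 h and −1.50 at 24 h. With 1 array per condition, the difference between single times was not tested. Against the mean of the 4 unprimed arrays these values were −1.05 and 0.16 for EXPA4, −0.87 and 0.53 for EXPA10, −0.85 and −0.03 for EXPA15, −0.82 and 2.19 for EXPA17, and −0.28 and 0.28 for EXLA3, so that none of the 5 was past 2-fold in opposite directions at these times. The unprimed mean pools 4 harvest times, so a difference from it also holds differences between times without priming. In the limma test of the early against the late effect the adjusted p was 0.351 for EXPA4, 0.161 for EXPA10, 0.245 for EXPA15, 0.705 for EXPA17 and 0.428 for EXLA3.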

How the results depend on the processing

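No pairing by replicate number was possible because each condition has 1 array and the labels give no such numbers; arrays were paired by time point, and without this block the limma fit of the mean effect gave 0 members and 8 of all probe sets passing. The counts of members lower at 4 and 8 h were within 1.5 times of 21 and 14 under quantile normalization (21 and 15), centring on reference genes (21 and 11), the unprimed mean as control (17 and 14), a 1.5-fold limit (28 and 21) and without dim probe sets (18 and 11, of the 32 members kept). The median at 8 h moved from −0.04 to −0.65 without dim probe sets, which leaves out members at the floor. The late counts were less stable. At 24 h the count of higher members went from 6 to 2 against the mean unprimed level and to 13 with a 1.5-fold limit, and that of lower members from 5 to 2 both against that mean and without dim probe sets, and to 1 with the unprimed 48 h array as control. At 48 h the count of higher members went from 3 to 1 with the unprimed mean and to 6 with the unprimed 24 h array, and that of lower members from 1 to 0 without dim probe sets, 6 with the unprimed mean, 2 with a 1.5-fold limit and 7 with the unprimed 24 h array. The use of the unprimed array of the other late time was chosen after seeing the data. Reversed were EXPA15 at 24 h (−0.03 with the unprimed mean and −0.34 with the unprimed 48 h array), EXPA4 at 24 h (−0.56) and XTH15 at 24 h (0.18) with the unprimed 48 h array, and EXLA3 at 4 h (−0.28) and 24 h (0.28) with the unprimed mean. Of the limma fits, members passing for early against late went from 0 to 1 (XTH6) with centring and without dim probe sets. The fits that omitted 1 pair of arrays each gave 0 members passing for the mean effect (lowest and highest count 0 and 0). Centring moved the median of all probe sets by −0.10 to 0.10. The spread between the unprimed 24 and 48 h arrays over the members was 0.61. Of the other values named, 711 moved by less than this or kept their side of the threshold. Some small differences among them changed sign, such as that of XTH13 at 24 h (0.32, and −0.13 with the unprimed mean). Another 56 moved by more, in the same direction or from a value not past 2-fold. The cause of these changes was not tested.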

Other observations

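Differences of any size also ran mostly one way early. Of the 56 members, 34 had a difference below 0 and 7 above 0 at 4 h, and 30 and 15 at 8 h, while at 24 h 16 were below and 25 above and at 48 h 14 and 24. Of all probe sets, 39.9% were below and 35.4% above 0 at 4 h, 36% and 38.5% at 8 h, 38.2% and 34.5% at 24 h, and 38% and 33.9% at 48 h. XTH7 was 11.67 against 12.52 at 4 h and 12.13 against 12.97 at 8 h, and then 12.54 against 12.20 and 12.48 against 12.31, so that both early primed values were below all unprimed values. XTH32, like XTH31 known for hydrolase activity, was 8.17 against 8.98 at 4 h and 9.73 against 8.89 at 24 h. EXPA13 was within 0.37 of its control at all 4 times. The probe set of LHCB2.1, a light-harvesting protein, which also reports another gene, was 14.62 against 12.41 at 4 h and 14.04 against 12.79 at 8 h, and within 0.02 of its control later, whereas the other green tissue probe sets were within 0.28 at all times.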
